A study of Mus musculus with 5 samples.

Results

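The 5 genes described here encode the adult haemoglobin chains and the erythroid enzyme that starts haem synthesis: Hba-a1 and Hba-a2 (alpha globins), Hbb-bs and Hbb-bt (beta globins) and Alas2. They were taken by symbol, and all 5 were among the 13711 genes present in the expression tables of all 5 heart sections. The sections were Visium spatial transcriptomes, in which polyadenylated RNA is captured on an array of barcoded spots, and a spot pools the RNA of the several cells above it. All animals were wild-type C57BL/6 mice operated on postnatal day 1, with myocardial infarction (P1 MI, by ligation of the left anterior descending artery) or sham surgery as the control. Sections were transverse, 10 µm thick, and cut 200 µm under the suture or, in sham hearts, at a matching level. The groups were Sham day 3 (1 section), Sham day 7 (1 section), MI day 3 (1 section) and MI day 7 (2 sections, replicates 1 and 2), where the day counts from surgery. The study describes the 2 MI day 7 sections as independent biological replicates and each other group as 1 biological sample, so the spread between animals was measured in 1 group only.

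Haemoglobin carries oxygen in red blood cells and is built from a pair of alpha and a pair of beta chains, each holding a haem group. Mature mammalian red cells have no nucleus, but young ones (reticulocytes) still hold globin mRNA for a short time, so globin transcripts in a tissue section are usually taken to come from blood. Alas2 catalyses the first and rate-limiting step of haem synthesis in erythroid cells, while its relative Alas1 serves the other cells of the body. In the mouse, adult globins replace embryonic forms before birth.

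The genes lie in 3 places of the genome (GRCm38, GENCODE vM21), and all are protein-coding. Hba-a1 (ENSMUSG00000069919, chr11:32283511-32284465, plus strand) and Hba-a2 (ENSMUSG00000069917, chr11:32296489-32297298, plus strand) are 12023 bases apart. Hbb-bs (ENSMUSG00000052305, chr7:103826534-103828096, minus strand) and Hbb-bt (ENSMUSG00000073940, chr7:103812524-103813996, minus strand) are 12537 bases apart. Alas2 (ENSMUSG00000025270) is at chrX:150547375-150570638 on the plus strand. Within each pair the coding regions differ at 1 base, of 426 in the alpha and 441 in the beta globins. The last 150 bases of the pair's transcripts, near the 3′ end that this assay captures, were also aligned. They aligned over 166 columns in the alpha globins with 133 identical and 32 that were gaps, and over 153 columns in the beta globins with 112 identical. How reads were split within each pair is therefore uncertain, and the sum of a pair is firmer than either gene.

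The 150 bases before the RefSeq start of each gene (GRCm38.p6) are shown because the 5 genes moved together in most comparisons. By the GENCODE coordinates above, the Hba-a1 and Hbb-bs windows lie inside the gene and the others overlap it in part. Capitals mark the letters of 4 motifs, each searched on both strands. The first was the erythroid CACCC motif, and the second was the common promoter element CCAAT. The motif read by GATA factors was searched as GATAA. The core promoter motif that binds the general transcription machinery was searched as TATAA. In Hbb-bt a reverse CCAAT directly precedes a forward one.
Hba-a1, chr11:32283522-32283671, plus strand: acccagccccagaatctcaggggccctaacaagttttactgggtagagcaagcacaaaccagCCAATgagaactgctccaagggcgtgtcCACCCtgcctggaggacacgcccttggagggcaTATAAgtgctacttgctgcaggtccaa
Hba-a2, chr11:32296342-32296491, plus strand: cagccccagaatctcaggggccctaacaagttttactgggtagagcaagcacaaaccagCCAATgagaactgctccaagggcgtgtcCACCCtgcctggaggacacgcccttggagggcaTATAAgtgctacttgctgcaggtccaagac
Hbb-bs, chr7:103827929-103828078, minus strand: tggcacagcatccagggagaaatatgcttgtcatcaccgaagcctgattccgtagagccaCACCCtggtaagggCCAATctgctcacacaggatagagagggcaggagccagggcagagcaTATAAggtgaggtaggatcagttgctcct
Hbb-bt, chr7:103813924-103814073, minus strand: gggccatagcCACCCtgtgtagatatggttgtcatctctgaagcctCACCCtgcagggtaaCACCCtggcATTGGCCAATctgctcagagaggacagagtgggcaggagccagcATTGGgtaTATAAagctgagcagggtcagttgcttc
Alas2, chrX:150547267-150547416, plus strand: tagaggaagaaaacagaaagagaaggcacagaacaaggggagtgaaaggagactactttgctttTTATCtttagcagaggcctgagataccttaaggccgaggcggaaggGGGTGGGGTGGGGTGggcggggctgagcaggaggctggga

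The alpha promoters aligned with 147 of 153 columns identical and the beta promoters with 112 of 153. CACCC was present in all 5 windows and in 37.4% of the 32851 promoter windows of the same length. CCAAT and TATAA were each present in the 4 globin windows and not in that of Alas2, against 24.5% and 14.2% of all windows. GATAA was present in the Alas2 window alone, against 13.3% of all windows. A match is only a match of letters.

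The 5 sections held 3364 spots and between 11396022 and 37492530 raw UMIs (unique molecules). The Sham day 3 table held raw UMI counts, while the other 4 held counts corrected for depth by the authors, so day 3 comparisons set 1 kind of value against the other. Spots were scaled to CPM over the shared genes (counts scaled to a common total in each spot), and a section's level is the mean over its spots. The assay counts 3′ ends, so levels of different genes were compared without length scaling. Of the 22 spots under 1000 raw UMIs, 21 were in MI sections and all 21 had CM1, the main cardiomyocyte state, as their highest cell type score; their removal changed none of the member counts below. Because sections share 1 barcode design, between 3 and 449 spot barcodes recurred between pairs of sections, and spots were kept apart by section.

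All 5 genes were higher in every MI section than in either sham section, but none passed the test. Hba-a1, the main alpha globin, had 1407 and 2090 CPM in Sham day 3 and day 7, 3460 CPM in MI day 3, and 2265 and 3597 CPM in MI day 7 replicates 1 and 2. The lowest MI section was thus close to the higher sham section. Hba-a2 had 96.3 and 137 CPM in the sham sections, 285 CPM in MI day 3, and 318 and 187 CPM in the MI day 7 replicates. Its highest section was MI day 7 replicate 1, in which Hba-a1 was the lowest of the MI sections.

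Hbb-bs, the main beta globin and the most abundant of the 5, had 2559 and 4136 CPM in Sham day 3 and day 7, 6999 CPM in MI day 3, and 5382 and 6287 CPM in MI day 7. Hbb-bt had 338 and 522 CPM in the sham sections, 612 CPM in MI day 3, and 581 and 652 CPM in MI day 7. Alas2 was far lower, at 10.2 and 16.6 CPM in the sham sections, 28.7 CPM in MI day 3 and 20.6 and 23.3 CPM in MI day 7. MI and sham sections did not overlap for any of the 5, and the same held, with MI higher, for 6.84% of the 12933 genes tested (9.6% with MI lower).

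**Figure D1:**
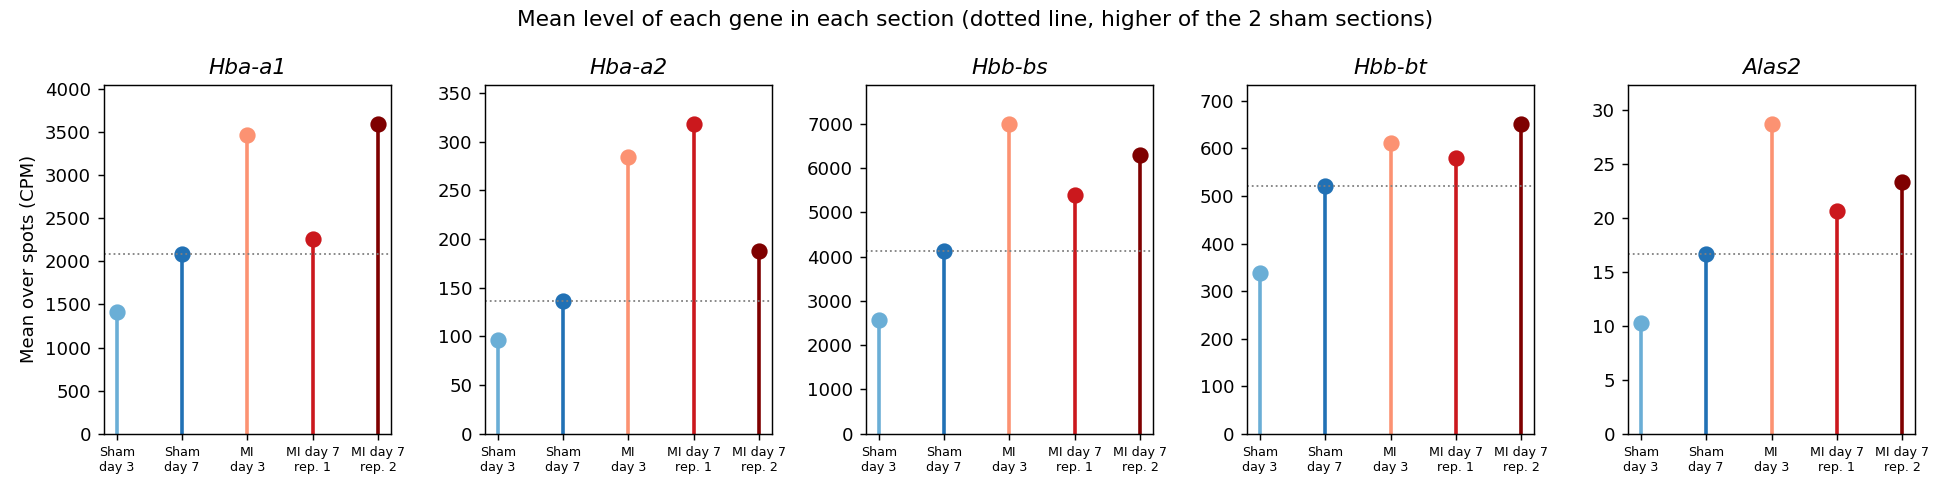
Mean level over spots (CPM) of each gene in each of the 5 sections, 1 point a section, with a dotted line at the higher sham section. All MI points lie above the line, and the distance is small for Hba-a1 in MI day 7 replicate 1 (2265 against 2090 CPM).

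On the log2(CPM + 1) scale, with the day as a covariate (limma), the MI minus sham difference was 0.81 ± 0.27 for Hba-a1, 1.14 ± 0.26 for Hba-a2, 0.90 ± 0.25 for Hbb-bs, 0.50 ± 0.17 for Hbb-bt and 0.82 ± 0.23 for Alas2 (SE, 5 sections). The limma adjusted p-values lay between 0.377 (Hba-a2) and 0.521 (Hbb-bt), so 0 of 5 genes were called, against 0.00773% of all genes called higher. At an unadjusted p under 0.05 all 5 passed, against 5.35% of all genes with a positive sign. The median difference of the 5 was 0.82, beside -0.01 over all genes tested. The size of the difference rested on the day 3 sections. Without Sham day 3, or without MI day 3, it was 0.45 for Hba-a1, 0.83 for Hba-a2, 0.49 for Hbb-bs, 0.24 for Hbb-bt and 0.38 for Alas2, with 0 of 5 called. Without Sham day 7, which leaves the raw Sham day 3 table as the only sham section, it was between 0.86 (Hbb-bt) and 1.55 (Hba-a2), and 2 of 5 were called, Hba-a2 (limma adjusted p = 0.0110) and Alas2 (1.40, limma adjusted p = 0.00271). That fit called 319 genes higher and 47 lower over all genes, against 1 and 0 with all sections. In spots, fewer red cells and less RNA per red cell cannot be told apart.

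The contrast between MI and sham was wider at day 3 than at day 7. At day 3, with 1 section a group and so no test, the MI to sham ratio was 2.46 for Hba-a1, 2.95 for Hba-a2, 2.73 for Hbb-bs, 1.81 for Hbb-bt and 2.80 for Alas2. At day 7, the ratio of the mean of the 2 MI sections to the sham section was 1.40, 1.85, 1.41, 1.18 and 1.32 in the same order. Whether the ratio differed between days was not tested. At day 7, 0 of 5 genes were called (limma), against 0.186% of all genes called higher and 0.0464% lower, and Hba-a2 came closest (0.83 ± 0.29 SE, limma adjusted p = 0.624). That fit had 1 residual degree of freedom.

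Between days, 4 of the 5 genes were higher at day 7 in sham and lower at day 7 in MI sections, while Hbb-bt was higher in sham (1.54-fold) and level in MI (1.01-fold). From day 3 to day 7, Hba-a1 changed 1.49-fold in sham sections and 0.847-fold in MI sections, Hbb-bs 1.62-fold and 0.834-fold, and Alas2 1.62-fold and 0.765-fold. With 1 sham section a day these ratios have no test. With surgery as a covariate, 0 of 5 genes were called for day 7 against day 3 (limma), beside 0.247% of all genes called higher and 0.348% called lower, and the differences lay between 0.06 (Alas2) and 0.27 (Hbb-bt), beside a median of -0.18 over all genes.

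Summed over the 4 globins, haemoglobin made up a mean of 0.440% and 0.688% of a spot's total in the sham sections, 1.14% in MI day 3, and 0.855% and 1.07% in MI day 7. Medians were lower, at 0.246% and 0.418% in sham and 0.680%, 0.640% and 0.617% in MI sections. The richest spot held 8.48% in Sham day 3, 23.1% in Sham day 7, 12.2% in MI day 3, 14.8% in MI day 7 replicate 1 and 27.1% in replicate 2. The highest 10% of spots held 40.1%, 40.0%, 41.7%, 28.7% and 41.0% of the section's haemoglobin in that order. MI day 7 replicate 1 was thus the most even section, although its median was the second highest. It was also the deepest, at a median of 53940 UMIs a spot against 20842.5 to 34837.5 in the others, and the part of depth in its evenness was not tested.

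Haemoglobin clustered in space most in MI day 3. Moran's I, which is near 0 when neighbouring spots are unrelated, was 0.399 in that section and between 0.119 and 0.181 in the other 4. For Alas2 it was 0.213 in MI day 3 and at most 0.0369 elsewhere. Across the spots of a section, haemoglobin share and raw UMIs had Spearman's rho between -0.05 and 0.11.

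**Figure D2:**
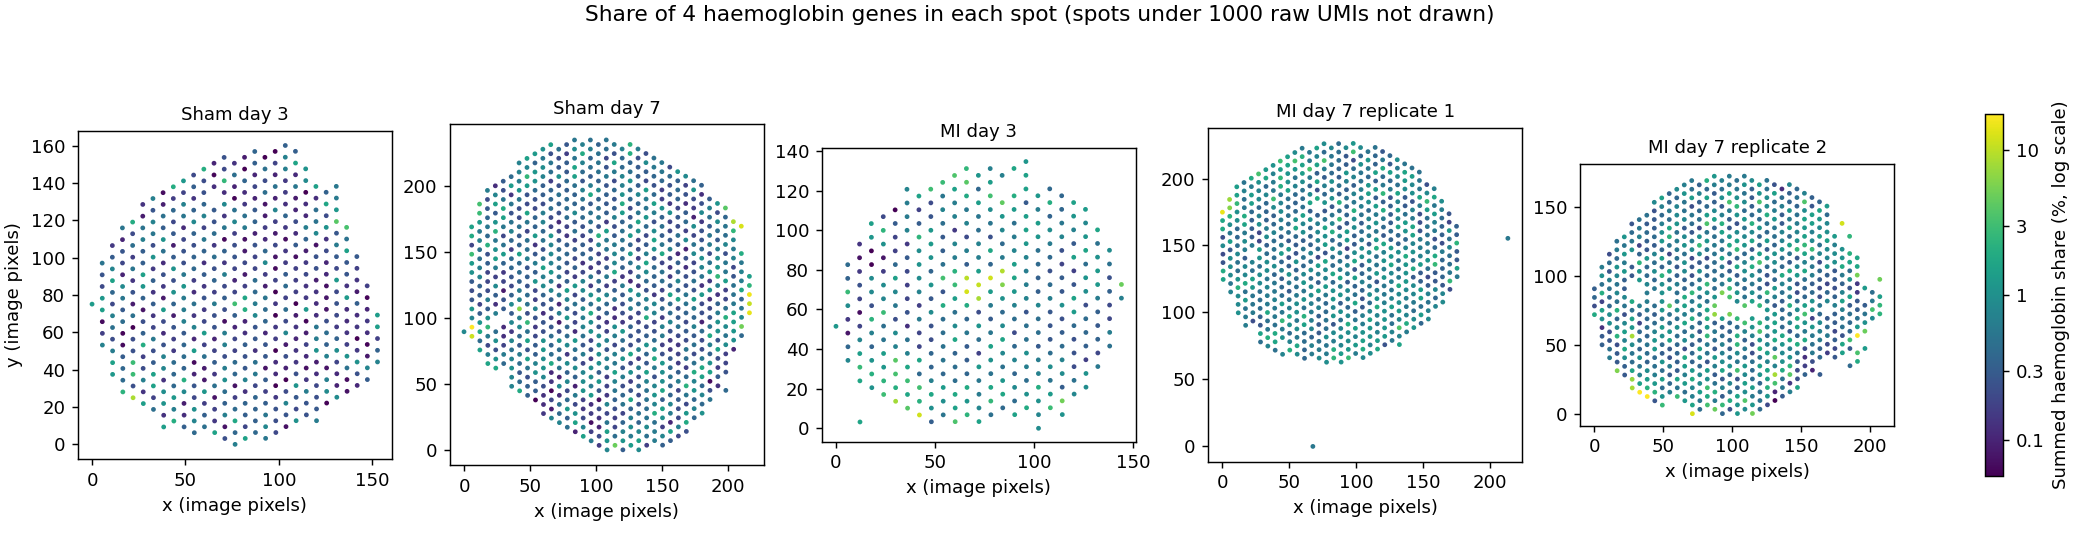
Each point is a spot at its position in image pixels, coloured by the summed share of the 4 haemoglobin genes (%, log colour scale), with 1 panel a section and 22 spots under 1000 raw UMIs left out. Edge spots made up between 24.3% and 45.5% of the richest 10% of spots, against 12.7% to 22.9% of all spots, so most of the richest spots were interior in every section.

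All 5 genes were higher in spots at the edge of the section than in its interior. Edge spots were those with fewer than 6 neighbouring spots, along the outline or beside a gap, and numbered 559 of 3364. The share of haemoglobin was 0.802% at the edge and 0.372% inside in Sham day 3, 1.61% and 0.554% in Sham day 7, 1.44% and 1.05% in MI day 3, 1.16% and 0.802% in MI day 7 replicate 1, and 1.84% and 0.873% in replicate 2. The edge was higher in 5 of 5 sections. Medians over spots were also higher at the edge in each section, by between 1.19 and 1.88 times.

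For Hba-a1 the edge and interior means were 2930 and 1121 CPM in Sham day 3, 5330 and 1618 CPM in Sham day 7, 4547 and 3138 CPM in MI day 3, 3147 and 2112 CPM in MI day 7 replicate 1, and 6704 and 2790 CPM in replicate 2. For Alas2 they were 17.4 and 8.91, 32.4 and 14.3, 39.9 and 25.4, 26.7 and 19.6, and 39.8 and 19.1 CPM in the same order. For both genes edge exceeded interior in every section, with the largest ratio in Sham day 7 and the largest difference in CPM in MI day 7 replicate 2.

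With the section as a block (limma on 2 profiles a section), the edge minus interior difference was 1.10 ± 0.11 for Hba-a1, 0.68 ± 0.08 for Hba-a2, 0.85 ± 0.09 for Hbb-bs, 1.04 ± 0.10 for Hbb-bt and 0.82 ± 0.11 for Alas2 (log2, SE). The limma adjusted p-values ran from 7.75e-07 (Hbb-bt) to 7.50e-05 (Alas2). All 5 were called higher, against 0.736% of the 13308 genes tested, with 4.05% called lower. The median over all genes was -0.13. Without the section block, so that differences between sections counted as error, 0 of 5 were called.

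On average over sections, the edge excess was wider in sham than in MI sections for all 5 genes, by between 0.31 (Alas2) and 0.76 (Hba-a1) on the log2 scale. That difference, a test added after the data had been seen, was called for 0 of 5 genes (limma adjusted p between 0.215 and 0.902), where 0% of genes were called either way and 4 of the 5 had an unadjusted p under 0.05, as had 406 of all 13308 genes with a negative and 348 with a positive sign. The calls changed without MI day 7 replicate 2: 4 of 5 genes were then called lower (limma), all but Alas2. That fit called 9 genes lower and 6 higher in all. The values there were -0.997 for Hba-a1, -0.585 for Hba-a2, -0.730 for Hbb-bs and -0.864 for Hbb-bt. All 5 genes kept a negative sign whichever section was left out. Single sections overlapped. The edge to interior ratio of MI day 7 replicate 2 was above that of Sham day 3 for Hba-a2 (1.73 against 1.69), Hbb-bs (1.95 against 1.91) and Alas2 (2.09 against 1.95). It was below that of Sham day 3 for Hba-a1 and Hbb-bt.

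**Figure D3:**
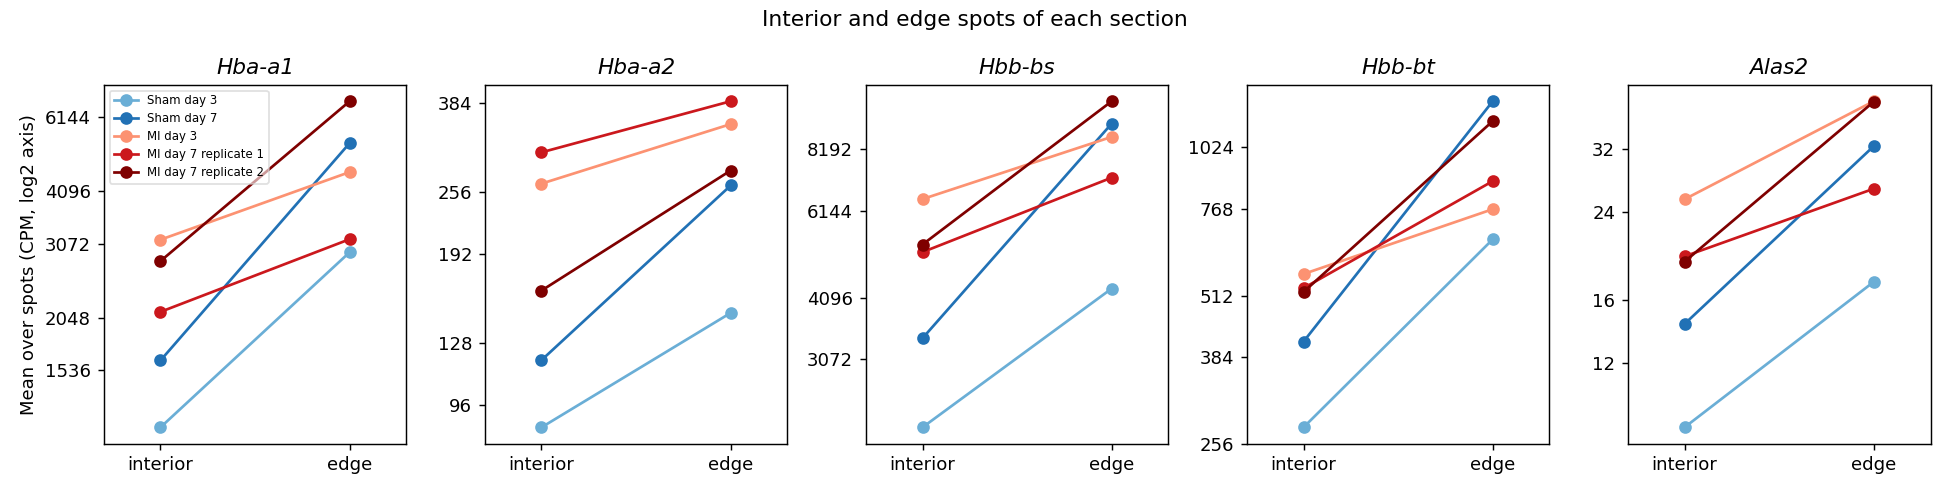
Mean level (CPM, log2 axis) of each gene in interior and edge spots, with 1 line a section. Every line rises from interior to edge, from 1.26 times (Hba-a2 in MI day 7 replicate 1) to 3.29 times (Hba-a1 in Sham day 7).

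How sharply the share fell from the edge differed between sections. In Sham day 7 the haemoglobin share was 1.61% in the edge ring, 0.681% in the next ring and 0.631% in the one after. In MI day 7 replicate 2 it was 1.84%, 0.845% and 0.871%, and in Sham day 3 0.802%, 0.392% and 0.487%. In these 3 sections the drop lay between the edge ring and the next. The decline was gradual in MI day 7 replicate 1, at 1.16%, 1.00%, 0.883% and 0.764% over the first 4 rings, and in MI day 3, at 1.44%, 1.05%, 0.940% and 0.786%. In 4 sections the mean share of the innermost ring was above that of the ring before it. In MI day 3 it was 1.32% and 1.97% in the innermost rings of 27 and 19 spots, with medians of 0.541% and 0.887%, against a mean of 0.628% in the ring with the lowest share. In MI day 7 replicate 2 the innermost ring of 13 spots held 1.05% against 0.786% in the ring before it, and the median was also higher (1.10% against 0.612%). In Sham day 3 (0.534% over 12 spots, against 0.303%) and Sham day 7 (0.469% over 15 spots, against 0.421%) the mean was higher but the median lower, at 0.220% against 0.252% and 0.280% against 0.383%. In Sham day 7 that mean was below each of the rings at 5 to 10 steps from the edge ring (0.471% to 0.628%). In MI day 7 replicate 2, the only section with at least 10 spots beside an enclosed gap, the 45 such spots held 1.53%, beside 1.96% on its outer edge and 0.873% inside.

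Other cell types differed at the edge too. Of the lists of cell type markers, 3 of 6 fibroblast genes were called higher and 1 lower, 2 of 7 macrophage genes higher, 1 of 3 B and T cell genes higher, 2 of 6 endocardial genes lower and 1 of 6 cardiomyocyte genes lower (limma), where 0.736% of all genes were called higher and 4.05% lower. No neutrophil, platelet or smooth muscle gene tested was called (2, 3 and 4 genes). The mesothelial marker Msln, named after its values were seen, was higher at the edge by 2.79 ± 0.27 (SE, limma adjusted p = 7.75e-07). Of the 3 epicardial genes tested it was the 1 called higher, while Tbx18 was called lower (-0.51 ± 0.14, limma adjusted p = 0.0419) and Wt1 was not called (0.13 ± 0.16). None of 6 endothelial genes was called. The summed fibroblast markers were between 1.07 and 1.65 times the interior at the edge, the macrophage markers between 0.910 and 2.74 times and the neutrophil markers between 0.734 and 2.27 times. Median UMIs a spot were lower at the edge than inside in 4 of 5 sections, most in MI day 3 (25683 against 35689.5), and higher in Sham day 3 (21428 against 20804). The part of these markers and of depth in the edge result was not tested.

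Each spot was assigned to the class with the highest of the authors' 11 cell type scores, and a class was used in a section where it had at least 10 spots. CM1-dominant spots, cardiomyocytes of the main state, were the reference, with a share of haemoglobin of 0.383% and 0.638% in sham and 1.10%, 0.860% and 0.992% in MI sections. The scores come from the same sections, and whether the globins entered them is not given in the sources used here.

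Endocardial-dominant (EndoEC) spots, which line the chambers, stood out in 2 of the 5 sections. They held 0.510% and 0.691% in the sham sections, 3.01% in MI day 3, and 0.663% and 2.38% in MI day 7 replicates 1 and 2. Both high values belonged to MI sections, but MI day 7 replicate 1 was at the sham level. Relative to CM1-dominant spots this was 1.33 and 1.08 times in sham sections, and 2.73, 0.771 and 2.40 times in MI sections. In MI day 7 replicate 2 the median was 0.724%, beside 0.640% in CM1-dominant spots. Limma called 3 of 5 genes higher than in CM1-dominant spots, namely Hba-a1 (0.66 ± 0.15 SE, adjusted p = 0.00203), Hbb-bs (0.53 ± 0.13, adjusted p = 0.00438) and Hbb-bt (0.56 ± 0.14, adjusted p = 0.00492). The background was 9.63% of genes called higher and 2.51% lower. Among interior spots alone 0 of 5 were called, in a fit that called 1008 genes higher and 256 lower. Hba-a1 was 0.47, Hbb-bs 0.36 and Hbb-bt 0.32 there. With a highest score of at least 0.5 also 0 of 5 were called, at 0.17, 0.14 and 0.10 for these genes. Scaling by median of ratios left 1 of 5. All 6 endocardial markers were called higher in these spots, as were all 6 fibroblast markers.

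The 32 endocardial-dominant spots of MI day 3 were all interior and had a median share of 1.22%. In MI day 7 replicate 2, 24.2% of the 33 spots were at the edge, and the 25 interior ones held 0.953%, close to the 0.874% of interior CM1-dominant spots. The difference between MI and sham sections was called for 0 of 5 genes (limma adjusted p = 0.998 for each), with 0% of genes called either way. Without MI day 7 replicate 1, that difference was called higher for 3 of 5, in a fit that called 3 genes higher and 0 lower in all.

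Fibroblast-dominant (FB) spots were below CM1-dominant spots in 4 of the 5 sections. They held 0.353% and 0.631% in sham sections, 0.528% in MI day 3 and 0.714% and 1.08% in MI day 7. All 5 differences from CM1-dominant spots were negative, between -0.11 (Alas2) and -0.28 (Hba-a1), and 0 of 5 were called (limma), against 3.42% of genes called lower and 23.5% called higher. Among interior spots alone, 4 of 5 were called lower, in a fit that called 428 genes lower and 2609 higher over all genes. The difference between MI and sham sections was also called for 0 of 5, where 0.0746% of genes were called higher and 0.00746% lower.

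CM4-dominant spots, another cardiomyocyte state among the authors' scores, were far above CM1-dominant spots in both sham sections and near or below them in the MI sections. They held 0.858% and 1.99% in Sham day 3 and day 7, 0.652% in MI day 3, and 0.961% and 1.08% in MI day 7. Relative to CM1-dominant spots this was 2.24 and 3.12 times in sham sections, and 0.592, 1.12 and 1.09 times in MI sections. Over all sections, 0 of 5 genes were called (limma, differences between 0.40 and 0.58, adjusted p between 0.246 and 0.389), with all 5 at an unadjusted p under 0.05, as were 9.18% of all genes with a positive sign, and 1.09% of genes called higher and 0.0602% lower. These values rested on single sections. Without MI day 3 they were between 0.61 and 0.90 and all 5 were called higher (over all genes 83 higher and 1 lower), without Sham day 7 they were between 0.15 (Hbb-bs) and 0.34 (Alas2), and without Sham day 3 between 0.21 (Hba-a2) and 0.47 (Alas2), with 0 of 5 called in both. Markers of other cell types were also higher in CM4-dominant spots (limma), with 5 of 6 fibroblast, 3 of 4 smooth muscle and 3 of 7 macrophage genes called higher, and their part in the globin values was not tested.

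The MI minus sham difference of the CM4 contrast, a test added after the data had been seen, was called lower for 4 of 5 genes (limma), against 0.151% of genes called lower (1.58% higher) and a median of 0.28 over all genes. It was -1.75 ± 0.24 for Hba-a1 (SE, limma adjusted p = 0.000394), -1.40 ± 0.15 for Hba-a2 (2.17e-05), -1.44 ± 0.21 for Hbb-bs (0.000755) and -1.81 ± 0.20 for Hbb-bt (2.77e-05). Alas2 had -1.17 ± 0.33 (limma adjusted p = 0.0640), and -1.55 with a highest score of at least 0.5 (limma adjusted p = 0.0380). CM4-dominant spots lay at the edge in 56.1% and 43.1% of cases in the sham sections, and in 12.5%, 1.32% and 15.1% in the MI sections. Among interior spots alone 0 of 5 were called (limma adjusted p between 0.0860 and 0.225), in a fit that called 2 genes higher and 1 lower in all. The globins had -0.98 (Hba-a1), -1.17 (Hba-a2), -0.93 (Hbb-bs) and -1.18 (Hbb-bt) there. The interior CM4 to CM1 ratio of the haemoglobin share was 2.26 and 1.65 in sham and 0.750, 1.15 and 1.12 in MI sections. Leaving out a sham section leaves 1 in that group, and Hbb-bs was then -1.68 (without Sham day 3) or -1.20 (without Sham day 7). Whichever section was left out, all 5 genes stayed negative, from -2.01 (Hbb-bt) to -0.77 (Alas2).

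Of the other classes, endothelial-dominant (EC) spots held 0.621% and 0.622% in sham and 1.34%, 0.849% and 0.815% in MI sections. Macrophage-dominant spots held between 0.269% and 0.601% in 4 sections and a mean of 1.94% in MI day 7 replicate 2. There they numbered 13, of which 5 were at the edge, and their median of 0.448% was below the 0.640% of CM1-dominant spots. CM5-dominant spots, with 13 to 19 spots a section, held between 0.389% and 0.704% in the 4 sections that had enough of them and were below CM1-dominant spots in each. Epicardial-dominant spots were numerous enough only in MI day 7 replicate 2, at 1.51% over 15 spots.

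**Figure D4:**
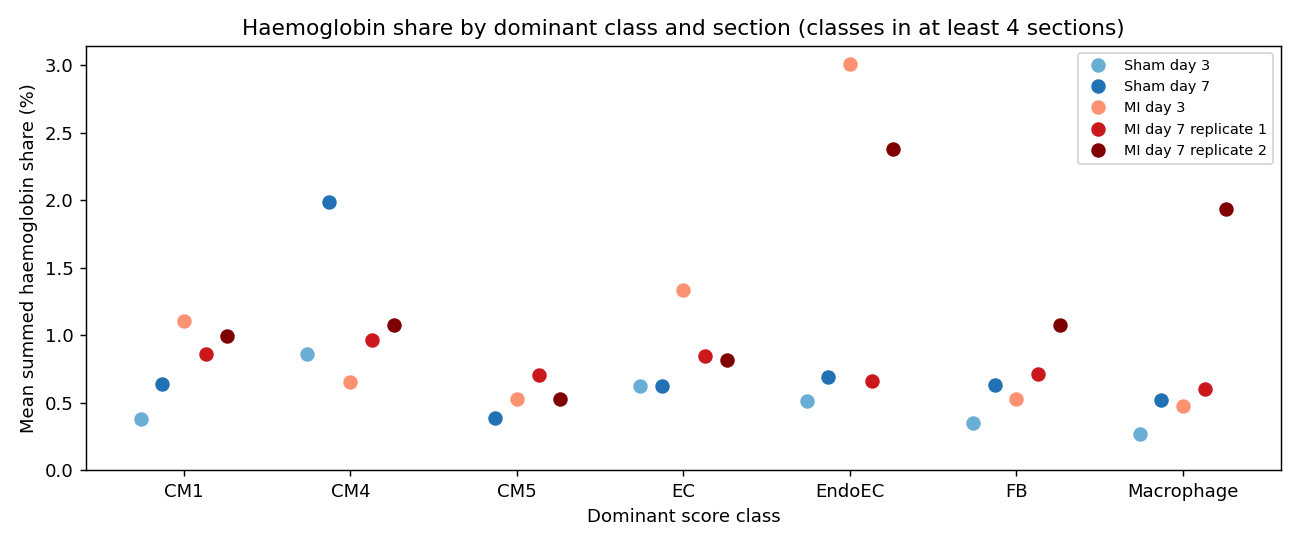
Mean summed haemoglobin share (%) of the spots of each dominant class, 1 point a section, for the 7 classes with at least 10 spots in 4 or more sections. The highest points are EndoEC in MI day 3 (3.01%) and MI day 7 replicate 2 (2.38%) and CM4 in Sham day 7 (1.99%).

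While the haemoglobin share ranged 2.58-fold between sections, the amount of Alas2 relative to haemoglobin ranged 1.16-fold between them. There were 23.1 Alas2 transcripts per 10000 globin transcripts in Sham day 3 (117 beside 50577 UMIs, exact 95% binomial interval 19.1 to 27.7, counting error only), 24.3 in Sham day 7, 25.4 in MI day 3, and 24.2 and 21.8 in MI day 7. The 4 other values lay within the Sham day 3 interval. At the edge the ratio was between 0.779 (Sham day 7) and 1.15 (MI day 3) times that inside. Within sections, where the counts given outside Sham day 3 are sums of depth-corrected values, the ratio varied more. Over the 5 bins of spots ordered by haemoglobin it ran from 12.6 (9 Alas2 counts) to 29.7 (55 counts) in Sham day 7 and from 12.8 (29 counts) to 28.4 (200 counts) in MI day 7 replicate 1. Among classes it was 14.5 in the endocardial-dominant spots of MI day 7 replicate 1 (23 Alas2 counts), beside 25.6 in CM1-dominant spots there, and 46.2 in the CM3-dominant spots of Sham day 7 (11 counts). Alas2 had 0 counts beside 963 globin counts in the pericyte- and smooth muscle-dominant spots of that section. Alas2 was sparse per spot, with at least 1 count in 15.1% of spots in Sham day 3 and 55.1% in MI day 7 replicate 1, the shallowest and the deepest table by total UMIs.

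Within a section, Alas2 followed haemoglobin from spot to spot. With the spots of a section ordered by haemoglobin share and cut into 5 equal bins, in the lowest bin it was detected in 4.63%, 4.69%, 13.3%, 18.1% and 12.0% of spots (Sham day 3, Sham day 7, MI day 3, MI day 7 replicates 1 and 2). In the highest bin it was detected in 44.0%, 53.1%, 84.2%, 89.9% and 62.9%. Spearman's rho across spots was between 0.37 and 0.62 for Alas2 against the summed globins, and between 0.91 and 0.97 for the alpha against the beta sum. Spots of a section share 1 library, so these describe the section.

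The makeup of the haemoglobin sum was less constant. The alpha sum was 0.518 and 0.478 of the beta sum in the sham sections, 0.492 in MI day 3, and 0.433 and 0.546 in MI day 7. Hba-a2 gave 6.30% and 6.13% of the alpha sum in sham, 7.60% in MI day 3, and 12.3% and 4.93% in MI day 7, so that the 2 MI day 7 replicates were the extremes of the 5 sections. Hbb-bt gave 11.6% and 11.2% of the beta sum in sham and 8.04%, 9.74% and 9.42% in MI sections, where it was lower in all 3. The part of reads shared within a pair was not tested.

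The makeup also moved with the amount. From the lowest to the highest of the 5 bins of spots, the Hba-a2 share of the alpha sum fell from 10.6% to 5.15% in Sham day 3, from 13.1% to 4.84% in Sham day 7, from 17.7% to 6.04% in MI day 3, from 16.1% to 10.4% in MI day 7 replicate 1, and from 8.91% to 3.77% in replicate 2. The alpha to beta ratio went from 0.444 to 0.557, 0.412 to 0.506, 0.376 to 0.541, 0.360 to 0.467, and 0.473 to 0.591 in the same order. Both directions were the same in 5 of 5 sections. Edge spots, which were not chosen by their haemoglobin, had a lower Hba-a2 share (0.690 to 0.910 times the interior) and a higher alpha to beta ratio (1.02 to 1.27 times) in 5 of 5 sections. These are ratios over the members and carry no test, and the part of depth correction and of reads shared within each pair was not tested.

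**Figure D5:**
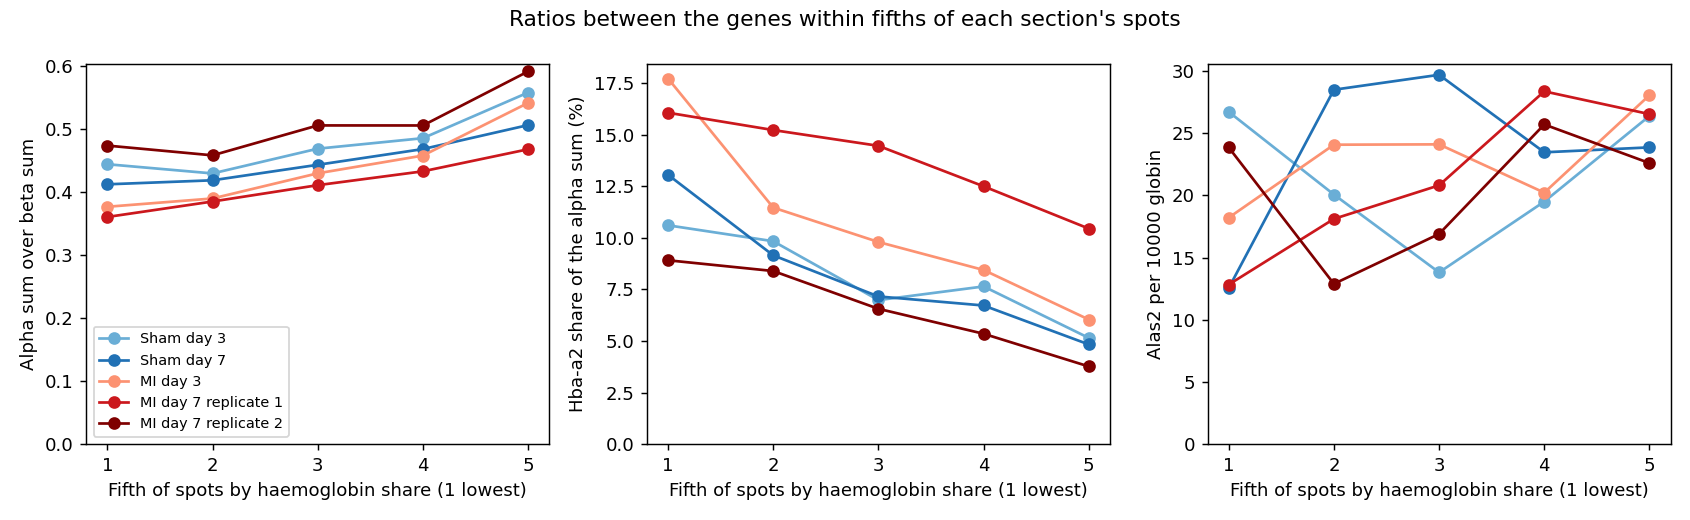
Alpha to beta ratio, Hba-a2 share of the alpha sum (%) and Alas2 per 10000 globin, in 5 bins of the spots of each section ordered by haemoglobin share (bin 1 lowest), with 1 line a section. In each section the Hba-a2 share is lower and the alpha to beta ratio higher in bin 5 than in bin 1, while Alas2 has no shared direction.

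Lists of other red cell genes gave few calls, and whether they differed from the globins was not tested. Of 12 further genes of haem synthesis and transport, 0 were called between MI and sham or between edge and interior (limma), with medians of 0.11 and -0.12. The 3 most abundant, with edge minus interior values on the log2 scale, were Alas1 (-0.13 ± 0.06 SE), Tmem14c, which carries a haem precursor into mitochondria (-0.09 ± 0.06), and Alad, the enzyme after Alas2 (-0.13 ± 0.07). Of the red cell membrane list, 14 of 18 genes were tested, and 1 was called higher and 1 lower at the edge (0.736% and 4.05% of all genes), namely the water channel Aqp1 (0.29 ± 0.08, limma adjusted p = 0.0306) and ankyrin Ank1 (-0.23 ± 0.06, limma adjusted p = 0.0304). Both are also used outside red cells. Ank1 was called higher at day 7 than at day 3 (0.90 ± 0.13, limma adjusted p = 0.0412).

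Of 20 soluble red cell proteins, 13 were tested and 0 were called in either comparison. Between MI and sham, 10 of the 13 were positive with a median of 0.10 (-0.01 over all genes), and 4 were higher at an unadjusted p under 0.05, as were 5.35% of all genes. At the edge 7 of 13 were positive with a median of 0.03 (-0.13 over all genes), and before adjustment 3 passed 0.05 as higher and 1 as lower, beside 2.09% of all genes as higher and 3060 of all 13308 as lower. Of 8 erythroid regulators (transcription factors and the erythropoietin receptor Epor), 5 were tested at the edge, where Lmo2, also a factor of endothelial cells, was called lower (-0.40 ± 0.10, limma adjusted p = 0.0291). Of 9 genes of haem breakdown and iron storage, 0 of the 8 tested were called in either comparison, with medians of 0.23 (MI minus sham) and -0.06 (edge minus interior). Their summed level in the highest 10% of spots for haemoglobin was between 0.971 and 1.08 times that in the rest. For haem synthesis genes other than Alas2 this was between 0.928 and 1.08 times.

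Embryonic globins and the erythroid factors Gata1 and Klf1 were near the limit of detection in Sham day 3, the section with the fewest UMIs. In the raw counts of Sham day 3, of 11396022 UMIs the embryonic globins Hba-x, Hbb-y and Hbb-bh1 had 0, 1 and 3 UMIs, and the erythroid factors Gata1 and Klf1 had 0 and 1. A count of 0 allows up to 0.263 CPM, with 3 counts as the limit. The anion exchanger Slc4a1, a major red cell membrane protein named here after its values were seen, had 1.49 and 1.59 CPM in sham sections, 3.13 CPM in MI day 3, and 2.81 and 2.17 CPM in MI day 7, so that each MI section was above both sham sections. It was not called (0.55 ± 0.20, limma adjusted p = 0.563). Its list did not share that direction: 5 of the 14 membrane genes tested were positive and 0 were called, with a median of -0.02, beside -0.01 over all genes. Of the 15 membrane genes in all tables, 2 had all MI sections above both sham sections (Slc4a1 and Epb42), and 3 had them all below (Add2, Dmtn and Tmod1).

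Over the spots of each section, few genes tracked haemoglobin. Among 10222 genes with a mean of at least 5 CPM, the mean of the within-section Spearman's rho over the 5 sections was at most 0.19, which is weak. The 10 highest were 8 mitochondrially encoded genes, led by mt-Co2 (0.19), and Mkrn1 (0.18) and Bpgm (0.17). Mkrn1 is on the red cell list, and Bpgm makes the compound that lowers the oxygen affinity of haemoglobin. Without mitochondrial genes, Slc25a37, the mitochondrial iron importer of erythroid cells (0.15), Aqp1 (0.12) and the endothelial marker Fabp4 (0.12) came next. Cd24a (0.11), Tspan7 (0.10), Aplnr (0.10), Epb41 (0.10) and Cav2 (0.09) followed. The other ranked genes of the red cell, haem synthesis and erythroid regulator lists lay between 0.08 (Ube2l6) and -0.02 (Tmod1). Alas2, for comparison, had 0.48. The 5 lowest were Postn (-0.14), Ankrd1, Actc1, Gsn and Aspn (-0.11), genes of fibroblasts and cardiomyocytes.

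Markers of blood cells other than red cells were read as summed levels, which do not count cells. Only 2 of 10 neutrophil markers were in all tables, with a summed level between 10.2 and 25.5 CPM in sham and between 8.27 and 81.0 CPM in MI sections. In the highest 10% of spots for haemoglobin, neutrophil markers were between 0.543 and 2.35 times, platelet markers between 0.868 and 1.47 times, and B and T cell markers between 1.51 and 5.95 times the rest. Only 3 of 6 B and T cell markers were in all tables, at a summed level of at most 6.75 CPM. Macrophage markers summed to between 113 and 126 CPM in sham and between 187 and 965 CPM in MI sections, so they too were higher in each MI section. Before adjustment 6 of the 7 macrophage genes passed 0.05 as higher, against 5.35% of all genes, 7 of 7 were positive and 0 were called (limma). Fibroblast markers also separated, at 4174 to 4471 CPM in sham and 5171 to 7098 CPM in MI sections, with 6 of 6 positive, 3 of them past 0.05 before adjustment, and 0 called. The part of both lists in the globin levels was not tested.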

How the data were processed

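Spatial transcriptomes of 5 heart sections (2 sham, 3 MI) were taken as deposited. Reads were processed with Space Ranger against mm10 according to the submitters' processing notes. The table of Sham day 3 holds raw UMI counts as the authors deposited them. The other 4 tables hold, as deposited, depth-corrected values from the authors' sctransform step in Seurat, treated here as a score rather than as counts. The authors also deposited cell type scores between 0 and 1, which the paper describes as probabilities that track cellular fraction, and spot positions in image pixels. A count model had been planned. Because 4 of 5 tables were not raw counts, limma was used on log2(CPM + 1) instead.

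Each spot was scaled to CPM over the 13711 shared genes, and spots were averaged per section, or per section and zone or class. Genes with at least 1 CPM in at least 2 profiles were tested with limma 3.58.1 in R 4.3.3, with Benjamini-Hochberg adjustment at 0.05. Fits between sections had 2 residual degrees of freedom, or 1 at day 7, and fits within sections, blocked by section, had 4, or 3 where the difference between MI and sham sections was tested. Edge spots had fewer than 6 neighbours within 1.25 median spacings, and classes needed at least 10 spots. The scripts were tested on simulated data. Total raw UMIs per section ran from 11396022 to 37492530, and intervals cover counting error only.

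The 5 genes were named in every comparison, with the 3 most abundant further genes of haem synthesis. Genes were also named from among the 10 most and 5 least similar by rank correlation. The members and lists were chosen with earlier results of these data known. Alternatives were other scaling, totals, pseudocount, filter, summing over spots, score and edge definitions, and leaving out each section.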

Additional observations from a re-analysis of the deposited data

Results flagged for a closer look

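The difference between CM4- and CM1-dominant spots differed between MI and sham sections for 4 genes, by a limma test of that difference itself that was added after the data had been seen. The MI minus sham value was -1.75 for Hba-a1, -1.40 for Hba-a2, -1.44 for Hbb-bs and -1.81 for Hbb-bt on the log2 scale, where 0.151% of all genes were called lower. Among interior spots alone 0 of 5 were called, in a fit that called 2 genes higher and 1 lower in all. The 4 genes lay between -0.93 (Hbb-bs) and -1.18 (Hbb-bt) there. Hbb-bs was -1.68 without Sham day 3 and -1.20 without Sham day 7. No group had the 4 samples needed to look for a sample far from the others.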

How the results depend on the processing

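No paired analysis was possible because the MI and sham groups share only replicate number 1; the section served as the block within sections. Alternatives on spots under 1000 UMIs, on interior spots alone and on the MI against sham differences were chosen after seeing the data. Unless stated, the cause of a change was not tested. For MI against sham across days, 53 of 55 repeats over members and settings kept their side of the threshold and 55 of 55 their direction. Leaving out each section gave 0 to 2 members, and 0 to 319 genes higher and 0 to 47 lower, against 2 and 1 under median-of-ratios scaling. For day 7 against day 3, leaving out either sham section turned Alas2 (-0.37), Hba-a1 (-0.28), Hba-a2 (-0.22) and Hbb-bs (-0.27). Hba-a1 was -0.02 without MI day 7 replicate 2 and Hba-a2 -0.05 without replicate 1. The highest values, without MI day 3, were 0.65 (Alas2), 0.57 (Hba-a1), 0.50 (Hba-a2) and 0.69 (Hbb-bs). Genes called numbered 10 to 125 higher and 22 to 637 lower when a section was left out, 127 higher under median of ratios, and 77 higher and 119 lower with totals lacking mitochondrial genes and members. MI against sham at day 7 called 0 higher and 0 lower under both scalings, 62 and 25 with sums over spots, and 10 lower without a filter.

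At the edge, 60 of 65 repeats kept the call. Without the section block 0 members, 0 genes higher and 1 lower were called. Median of ratios gave 177 higher and 51 lower, and the other total 102 lower. Leaving out sections gave 49 to 86 higher and 83 to 696 lower. The MI against sham difference at the edge gave 0 to 4 members, 0 to 8 genes higher and 0 to 9 lower without a section, and 1 higher and 1 lower with an edge of fewer than 5 neighbours.

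For endocardial-dominant spots, members called numbered 1 under median of ratios, 0 without the block, 0 at a score of at least 0.5, where Alas2 was -0.066, 0 in the interior, and 2 to 5 without a section. Genes called were 748 higher and 835 lower under median of ratios, 285 and 7 without the block, 533 lower with the other total, and 911 to 1392 higher and 155 to 333 lower without a section. The MI against sham difference turned at a score of at least 0.5, to -0.17 (Hba-a1), -0.032 (Hba-a2), -0.11 (Hbb-bs) and -0.19 (Hbb-bt). Without a section it called 0 to 3 members, 0 to 3 genes higher and 0 to 3 lower.

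For fibroblast-dominant spots, members called lower numbered 3 under median of ratios, 1 with the other total, 1 with sums and 4 in the interior. Genes called were 1446 higher and 1517 lower, 1954 and 781, and, without the block, 1091 and 18. Without a section they were 1850 to 3208 higher and 134 to 376 lower.

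For CM4-dominant spots, members called were 0 to 5 without a section, and genes 63 to 279 higher and 0 to 21 lower. Genes called were 0 and 0 without the block, 39 higher and 1 lower in the interior, 55 lower under median of ratios and 4 lower at a pseudocount of 0.5 CPM. The MI against sham difference called 3 to 4 members without a section and 0 in the interior. Its genes were 22 to 343 higher and 6 to 30 lower without a section, 20 and 34 under median of ratios, 25 higher with the other total, and 2 and 1 in the interior. The haemoglobin share as a median was 0.246%, 0.418%, 0.680%, 0.640% and 0.617%. Without mitochondrial genes in the total it was 1.33% in MI day 3, and 1.14% and 1.29% in MI day 7 replicates 1 and 2. Depth limits Alas2 most, at 117 UMIs in Sham day 3.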
